A study of Mus musculus with 7 samples.

Results

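Transcripts of 9 complement genes were followed across the cells of the mouse aorta, out of 31253 genes counted. The members were chosen by name: the C1q chains C1qa, C1qb and C1qc, the classical pathway factors C4b and C2, the central component C3, the alternative pathway protease Cfb, the terminal component C7 and the C3a receptor C3ar1. All 9 were found in every library by their gene symbols. Their unique molecular identifiers (UMIs, each the mark of 1 captured transcript) were summed per library over cells gated by marker genes that include no complement gene.

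The 7 single-cell libraries came from the aorta of mice kept on a high-salt diet for 3 weeks, a diet that both groups received. The 4 endothelial knockout libraries carry the genotype Slc38a2deltaEC, in which the amino acid transporter gene Slc38a2 is deleted in the endothelium, and the 3 flox control libraries carry Slc38a2flox/flox. The labels name neither the promoter that drives the recombinase nor the deleted exons, nor the age, sex or strain, and they do not say whether each library is a separate animal, so p-values measure the spread between libraries. Cells were captured on the BD Rhapsody system, which pairs single cells with barcoded beads in microwells.

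Complement is a cascade of plasma and tissue proteins that tags particles and cells for removal and raises inflammation. C1q, assembled from the products of C1qa, C1qb and C1qc, recognises immune complexes and dying cells and activates the proteases C1r and C1s, which cleave C4 and C2 into the classical C3 convertase, while factor B (Cfb) supplies the protease of the alternative convertase. Cleaved C3 coats the target and releases C3a, the ligand of C3ar1 on myeloid cells, and C7 anchors the membrane attack complex. Macrophages are a known source of C1q outside the liver, and fibroblasts can make C3.

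The C1q genes lie side by side on chromosome 4 of GRCm38, all on the minus strand: C1qb at chr4:136880129-136886187, C1qc at chr4:136889804-136893065 and C1qa at chr4:136895917-136898803, within 18675 bases. C4b (chr17:34728380-34743882), Cfb (chr17:34856374-34862518) and C2 (chr17:34862604-34898265) share a strand on chromosome 17, with 112491 bases between C4b and Cfb and 85 bases between Cfb and C2. C3 is at chr17:57203970-57228136, C7 at chr15:4988762-5063740 and C3ar1 at chr6:122847138-122856161. Gm20547, a gene model that overlaps both Cfb and C2 on the same strand, received 59 UMIs over all kept cells. C4b has a near-identical copy, C4a, which was among the other complement genes listed but whose values are not reported here. The C4b counts are uncertain to the extent that reads could be split between C4b and C4a.

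Promoters are shown for members that separated into macrophages (C1qb and C1qc) and fibroblasts (C3) in the results below, each 250 bases before and 50 bases after the start in the RefSeq table for GRCm38.p6, which held 5 of the 9 members. Capitals mark the PU.1 core GAGGAA, searched on both strands, in the C1q promoters, and the C/EBP half-site pair TTNNGNAA, searched on both strands, in C3. PU.1 is a transcription factor of the myeloid lineage, and C/EBP factors are known from acute phase genes. The sequences below run 5′ to 3′ on the gene's own strand and are C1qb (chr4:136886151-136886450, minus strand), C1qc (chr4:136892865-136893164, minus strand) and C3 (chr17:57228087-57228386, minus strand).
C1qb: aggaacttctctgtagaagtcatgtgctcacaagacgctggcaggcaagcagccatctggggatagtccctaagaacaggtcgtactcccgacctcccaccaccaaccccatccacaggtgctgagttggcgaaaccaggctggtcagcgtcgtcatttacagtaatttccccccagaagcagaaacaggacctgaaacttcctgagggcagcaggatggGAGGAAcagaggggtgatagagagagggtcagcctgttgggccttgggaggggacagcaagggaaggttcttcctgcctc
C1qc: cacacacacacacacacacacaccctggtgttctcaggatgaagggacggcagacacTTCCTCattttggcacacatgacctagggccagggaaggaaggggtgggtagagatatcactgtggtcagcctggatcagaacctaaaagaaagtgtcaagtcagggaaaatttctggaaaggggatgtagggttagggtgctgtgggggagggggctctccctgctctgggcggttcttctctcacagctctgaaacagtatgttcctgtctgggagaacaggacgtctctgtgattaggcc
C3: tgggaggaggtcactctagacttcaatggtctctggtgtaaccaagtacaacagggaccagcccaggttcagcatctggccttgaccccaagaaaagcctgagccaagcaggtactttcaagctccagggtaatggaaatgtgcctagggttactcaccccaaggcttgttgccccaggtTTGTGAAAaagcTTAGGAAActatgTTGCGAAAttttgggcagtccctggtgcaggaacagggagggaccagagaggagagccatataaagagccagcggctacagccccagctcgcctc

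The PU.1 core was found 1 time in C1qb and 1 time in C1qc, on the minus strand of the window there, and not in C3, C7 or C3ar1. It was present in 28.3% of 32851 promoters of the same length. The C/EBP pair was found 3 times in C3, between 70 and 38 bases before the start, and was present in 40.7% of promoters. The same pair matched 1 time in C1qc and 2 times in C7. These are matches of letters only, and each motif occurs in a large share of promoters.

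Of 76359 barcodes, 67477 were kept, and the kept cells had median depths of 3085 to 5465.5 UMIs in libraries of 22646246 to 73102988 UMIs. The gates took in 36933 cells like fibroblasts, 17887 like smooth muscle, 4100 like macrophages and 1276 like endothelium, and these are called fibroblasts, smooth muscle cells, macrophages and endothelial cells below. The labels call the cell type goblet cells, but 0 kept cells had 3 or more of 7 goblet markers. Endothelial knockout 4 held 319 smooth muscle cells, against 1918 to 5060 in the other libraries. Flox control 3 macrophages stood apart, with 2574 CPM over an interferon list against 645 to 1021 CPM elsewhere and 37132 CPM over an NF-kB list against 9415 to 19374 CPM, and flox control 1 macrophages carried 2417 CPM of fibroblast markers against 387 to 936 CPM elsewhere. Levels are given as CPM, the usual scaling of the UMIs of a gene by all UMIs of the gated class in a library. Between classes, each log2 fold change with its standard error comes from edgeR's quasi-likelihood test across all tested genes with the library as a block, adjusted by the Benjamini-Hochberg method, and a gene was called at an adjusted p under 0.05.

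The members split by cell class. Macrophages carried the C1q chains and C3ar1, fibroblasts carried C2, C3, C7 and Cfb, and C4b was shared between both. All 9 members were called between macrophages and fibroblasts, 5 higher and 4 lower in macrophages, where 74.2% of 14605 genes were called, 34.1% higher and 40.0% lower. Of the UMIs in all kept cells, macrophages held 93.7% of C1qa, 93.1% of C1qb, 93.4% of C1qc and 94.1% of C3ar1, while fibroblasts held 97.6% of C2, 98.2% of C3, 97.7% of C7 and 97.1% of Cfb. Of C4b, 81.0% lay in fibroblasts and 15.7% in macrophages. These shares rest on 19555 C1qa, 57255 C1qb, 69580 C1qc, 27861 C3ar1, 53714 C2, 194281 C3, 135714 C7, 26335 Cfb and 57444 C4b UMIs.

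**Figure D1:**
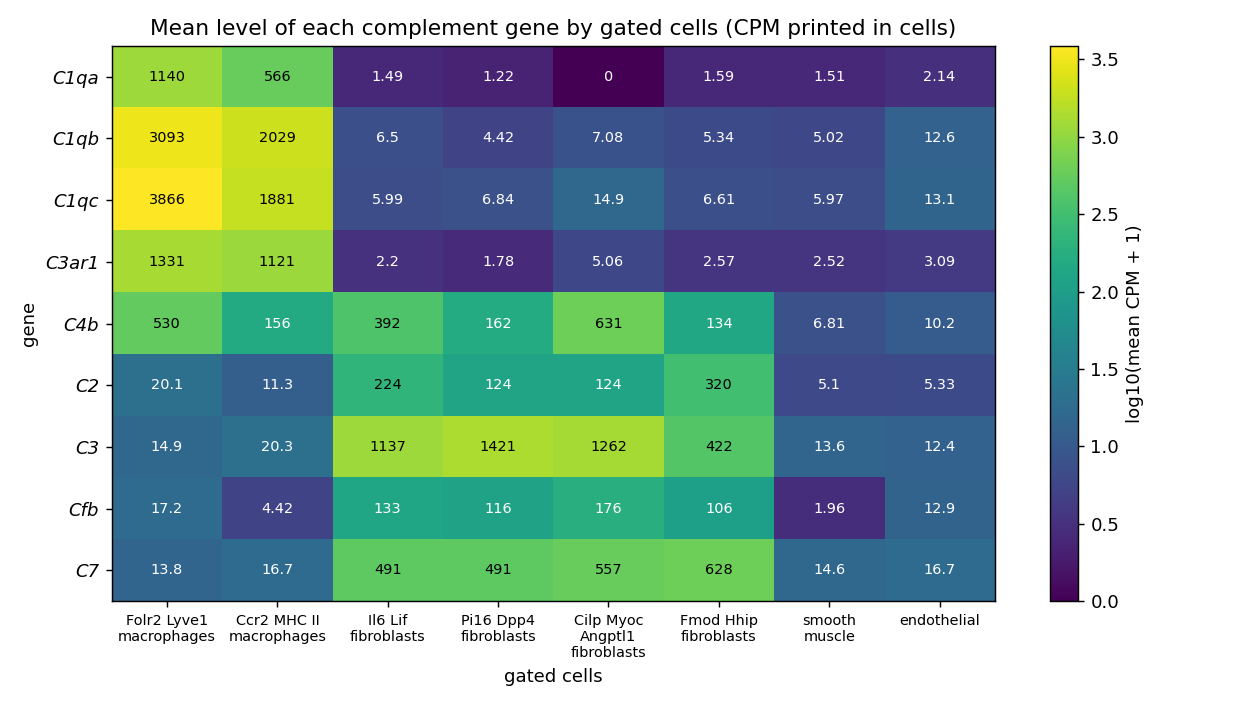
Mean level of the 9 genes (rows) in 8 gated cell groups (columns), colour being log10 of mean CPM + 1 over the libraries with at least 20 cells of the group (5 for Cilp Myoc Angptl1 fibroblasts, 7 for the rest). The C1q genes and C3ar1 are bright in both macrophage columns only, C2, C3, C7 and Cfb in the 4 fibroblast columns, and C4b in both kinds.

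C1qa, which encodes the A chain of C1q, ran from 792 to 1076 CPM over the 7 libraries in macrophages, with a median of 857 CPM, against 0.304 to 4.58 CPM in fibroblasts with a median of 0.614 CPM. C1qb, the B chain gene, ran from 2052 to 3398 CPM in macrophages, with a median of 2643 CPM, against 1.29 to 17.8 CPM in fibroblasts with a median of 2.63 CPM. C1qc, the C chain gene, ran from 1948 to 3911 CPM in macrophages, with a median of 3299 CPM, against 1.67 to 21.1 CPM in fibroblasts with a median of 3.14 CPM. In each library the macrophage value was above the fibroblast value for every chain, and no macrophage value fell into the fibroblast range. Macrophages over fibroblasts had log2 fold changes of 9.64 (SE 0.45) for C1qa, 9.46 (SE 0.46) for C1qb and 9.42 (SE 0.49) for C1qc, with edgeR adjusted p of 3.4e-09, 4.8e-09 and 7.9e-09.

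Among cells with at least 2000 UMIs, each thinned to 2000, C1qc was seen in 95.7% of 3436 macrophages and 1.21% of 30675 fibroblasts. Before this cut, median depths per library were 3252.5 to 5450 UMIs in macrophages and 3852 to 6630 UMIs in fibroblasts. Without the cut or thinning the shares were 94.1% of 4100 macrophages and 3.43% of 36933 fibroblasts. Shares with and without thinning therefore cover different sets of cells. Of all C1q UMIs in a class, C1qb and C1qc made up 39.0% and 47.6% in macrophages, 39.1% and 48.8% in smooth muscle cells, 46.3% and 43.0% in endothelial cells, and 40.4% and 48.8% in fibroblasts, with C1qa the remainder. The fibroblast level was highest in flox control 1 (21.1 CPM of C1qc), with endothelial knockout 4 next, the same libraries whose fibroblasts held the most macrophage marker RNA, 189 and 147 CPM over the list against 97 to 102 CPM elsewhere. The part of free or neighbouring macrophage RNA in these low levels was not tested.

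C3ar1, the receptor for the C3 fragment C3a, followed the C1q chains. It ran from 872 to 1526 CPM in macrophages, with a median of 1340 CPM, against 0.786 to 6.39 CPM in fibroblasts with a median of 1.57 CPM. The ranges lay far apart and the macrophage value was the higher in 7 of 7 libraries. This gave a log2 fold change of 9.45 (SE 0.41, edgeR adjusted p = 1.8e-09). Among the cells thinned to 2000 UMIs, C3ar1 was seen in 84.8% of macrophages and 0.437% of fibroblasts. Among all cells without thinning it was seen in 86.9% and 1.20%.

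C4b, which encodes the C4 precursor cleaved by C1s, was the only member with a sizeable level in both classes. Macrophages of endothelial knockouts 1, 2, 3 and 4 had 511, 370, 453 and 410 CPM and those of flox controls 1, 2 and 3 had 442, 603 and 114 CPM. Fibroblasts of the same libraries had 225, 214, 218 and 226 CPM in endothelial knockouts and 165, 219 and 245 CPM in flox controls. Macrophages were higher in 6 of 7 libraries, and in flox control 3 they were lower. Macrophages over fibroblasts gave a log2 fold change of 0.87 (SE 0.25, edgeR adjusted p = 0.0080).

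C2, the protease zymogen that joins C4b in the classical convertase, was a fibroblast gene here. It ran from 9.60 to 26.5 CPM in macrophages, with a median of 13.8 CPM, against 210 to 268 CPM in fibroblasts with a median of 234 CPM. Its fibroblast mean was 235.8 ± 22.0 CPM (SD, n = 7). Macrophages over fibroblasts gave a log2 fold change of -3.80 (SE 0.17, edgeR adjusted p = 2.4e-09).

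C3, the component on which all activation routes converge, ran from 10.5 to 40.4 CPM in macrophages, with a median of 12.6 CPM, against 509 to 1396 CPM in fibroblasts with a median of 823 CPM. Cfb, the alternative pathway protease gene next to C2, ran from 4.80 to 20.4 CPM in macrophages, with a median of 12.1 CPM, against 87.5 to 179 CPM in fibroblasts with a median of 118 CPM. C7, a terminal component, ran from 4.80 to 43.4 CPM in macrophages, with a median of 7.85 CPM, against 261 to 985 CPM in fibroblasts with a median of 424 CPM. Fibroblasts were higher in every library for all 3 genes, without overlap of the ranges. The log2 fold changes were -5.65 (SE 0.26) for C3, -3.14 (SE 0.19) for Cfb and -5.40 (SE 0.23) for C7, with edgeR adjusted p of 2.7e-09, 2.0e-08 and 1.8e-09.

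Among the cells thinned to 2000 UMIs, C3 was seen in 3.70% of macrophages and 49.6% of fibroblasts. Among all cells without thinning it was seen in 7.63% and 57.8%. The thinned fibroblast share of C3 ran from 35.1% to 68.5% between libraries, and that of C7 from 32.0% to 67.0%, while C2 stayed between 28.4% and 35.0%. C7 was highest in the macrophages and fibroblasts of flox control 1, at 43.4 CPM and 985 CPM, and its macrophage level moved with the fibroblast marker RNA given above for that library, whose part was not tested.

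Smooth muscle cells and endothelial cells held little of any member. In smooth muscle cells against fibroblasts, 5 of 9 members were called, all lower (39.3% of 15467 genes were lower and 77.2% were called in all), and in endothelial cells against fibroblasts the same 5 members were lower (29.0% of 14196 genes were lower and 50.3% called in all). The mean levels in smooth muscle cells were 5.10 CPM for C2, 13.6 CPM for C3, 6.81 CPM for C4b, 14.6 CPM for C7 and 1.96 CPM for Cfb. For C3 in smooth muscle cells over fibroblasts the log2 fold change was -6.38 (SE 0.39, edgeR adjusted p = 5.9e-08). Smooth muscle cells carried 3436 to 5582 CPM of fibroblast markers against 41444 to 48480 CPM in fibroblasts. Flox control 1 had the most of that list among smooth muscle sums and also the highest value of all 9 members, such as 51.1 CPM of C7 and 41.1 CPM of C3, and the part of fibroblast RNA in these values was not tested.

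In endothelial cells Cfb was nearer to its fibroblast level than C3 was. Its mean of 12.9 CPM (62 UMIs, found in 7 of 7 libraries), beside 12.7 CPM in macrophages, was low against 120 CPM in fibroblasts, with a log2 fold change of -3.61 (SE 0.18, edgeR adjusted p = 1.9e-12), but C3 was -6.38 (SE 0.24, edgeR adjusted p = 5.8e-14). Per 100 C3 UMIs, endothelial cells held 81.6 Cfb UMIs, macrophages 71.4, smooth muscle cells 14.3 and fibroblasts 13.4. For C4b the same ratio was 2438 in macrophages, 90.8 in endothelial cells, 59.8 in smooth muscle cells and 24.4 in fibroblasts. The ratios rest on 371 C3 UMIs in macrophages, 76 in endothelial cells and 896 in smooth muscle cells, and they were not tested.

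The rarer gated cells were pooled over libraries, so their values have only exact 95% Poisson intervals, which cover counting error. C4b reached 701 CPM in 74 Schwann-like cells, the glia of peripheral nerves (105 UMIs, interval 573 to 848 CPM, found in 7 of 7 libraries). Adipocyte-like cells, 28 in 4 libraries, held 624 CPM of C3 (556 to 698), 481 CPM of C4b (422 to 547), 76.4 CPM of Cfb (53.8 to 105) and 51.6 CPM of C2 (33.4 to 76.2). Mast cell-like cells held 98.4 CPM of C2 in 250 cells (94 UMIs, 79.5 to 120 CPM, found in 7 of 7 libraries), with 204 C2 UMIs per 100 C3 UMIs against 27.5 in fibroblasts. They also held 104 CPM of C1qc (found in 5 libraries) and 96.3 CPM of C1qb (in 4), and erythroid-like cells held 85.4 and 67.1 CPM of these genes. The part of macrophage RNA in these C1q values was not tested. Neutrophil-like cells held 135 CPM of C3 in 218 cells (52 UMIs, 101 to 178 CPM), with 1.92 C2 and 0 Cfb UMIs per 100 C3 UMIs. Erythroid-like cells held 119 CPM of C3 in 277 cells (110 UMIs, 97.8 to 143 CPM, found in 7 of 7 libraries) and monocyte-like cells 122 CPM in 21 cells (11 UMIs, 60.7 to 217 CPM), intervals that overlap that of the neutrophil-like cells. The neutrophil-like C3 came from 6 libraries, but 125 of the 218 cells were from endothelial knockout 1. Endothelial knockout 4 held 142 of the 277 erythroid-like and 110 of the 250 mast cell-like cells. The intervals do not cover the spread between libraries, and the ratios were not tested.

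Macrophages were divided by markers into 1645 Folr2 Lyve1 cells, a pattern known from resident perivascular macrophages, and 1068 Ccr2 MHC class II cells, a pattern known from macrophages replenished by monocytes, while 1387 had no state. Close to the limit of the gate lay 244 cells for the Folr2 Lyve1 state and 469 for the Ccr2 state. The classical pathway members and Cfb, of the alternative pathway, ran higher in the Folr2 Lyve1 cells. In counts, 6 of 9 members were called higher and 0 lower, where 26.5% of 8593 genes were called, 11.8% higher and 14.7% lower. C1qa averaged 1140 CPM in Folr2 Lyve1 cells and 566 CPM in Ccr2 cells, C1qb 3093 and 2029 CPM, and C1qc 3866 and 1881 CPM. Each chain was higher in the Folr2 Lyve1 cells of 7 of 7 libraries. The log2 fold changes were 0.92 (SE 0.09) for C1qa, 0.49 (SE 0.08) for C1qb and 0.93 (SE 0.09) for C1qc, with edgeR adjusted p of 2.7e-07, 0.00018 and 3.9e-07.

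C4b, whose product C1s cleaves once C1q has bound, was higher in the Folr2 Lyve1 state too. Folr2 Lyve1 cells had 784, 416, 517 and 596 CPM in endothelial knockouts 1 to 4 and 518, 762 and 119 CPM in flox controls 1 to 3, against 94.2, 127, 178 and 206 CPM in the Ccr2 cells of the endothelial knockouts and 207, 214 and 63.8 CPM in those of the flox controls. The Folr2 Lyve1 value was higher in 7 of 7 libraries, by 1.86 to 8.32 times, and the smallest gap was in flox control 3. With edgeR the log2 fold change came to 1.66 (SE 0.16, edgeR adjusted p = 3.3e-07). C3ar1 averaged 1331 CPM in Folr2 Lyve1 cells and 1121 CPM in Ccr2 cells and did not pass the test (log2 fold change 0.14, SE 0.09, edgeR adjusted p = 0.29).

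**Figure D2:**
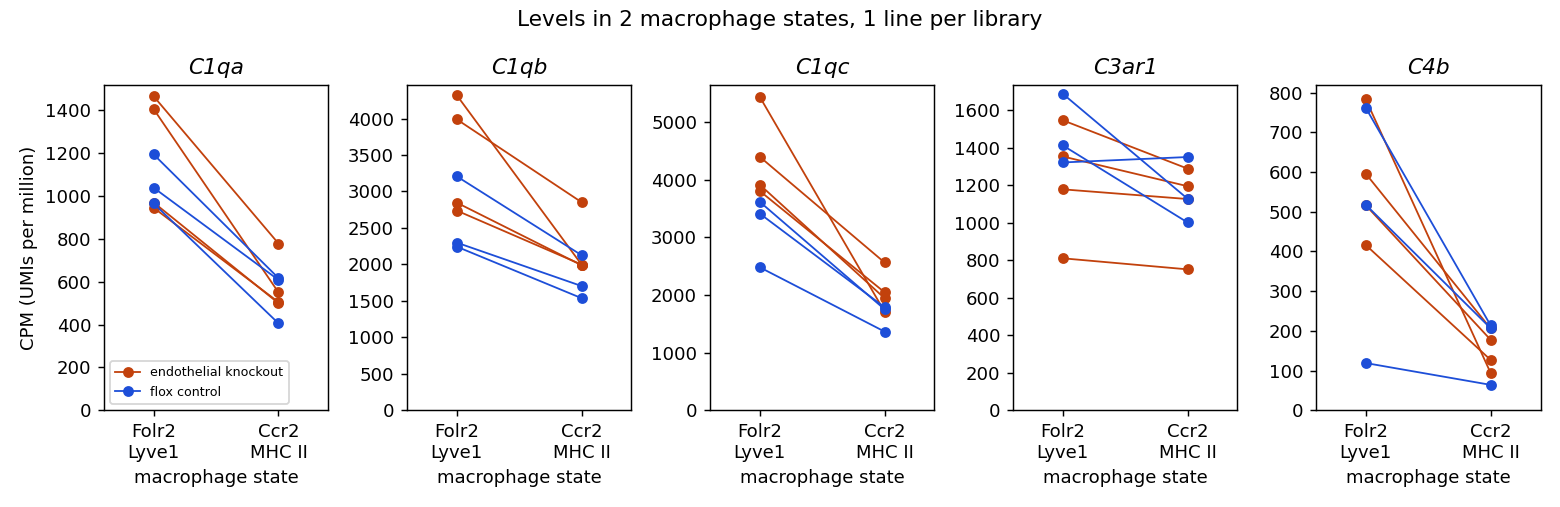
CPM of 5 genes in Folr2 Lyve1 and Ccr2 MHC class II macrophages, with 1 line per library joining its values, endothelial knockouts in orange and flox controls in blue. C1qa, C1qb, C1qc and C4b descend to the Ccr2 state in 7 of 7 libraries, and C3ar1 in 6 of 7.

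Cfb and C2 were also higher in Folr2 Lyve1 cells, at low levels. Cfb averaged 17.2 CPM in Folr2 Lyve1 cells and 4.42 CPM in Ccr2 cells (log2 fold change 1.86, SE 0.40, edgeR adjusted p = 0.0019, higher in 7 of 7 libraries). C2 averaged 20.1 CPM in Folr2 Lyve1 cells and 11.3 CPM in Ccr2 cells (log2 fold change 0.81, SE 0.29, edgeR adjusted p = 0.045, higher in 6 of 7 libraries), and its call was lost without flox control 2 or without any of endothelial knockouts 2, 3 and 4, at log2 fold changes of 0.78, 0.69, 0.91 and 0.62. C3 (log2 fold change -0.32, SE 0.30) and C7 (-0.41, SE 0.24), whose UMIs lay almost wholly in fibroblasts, did not pass. The NF-kB list was lower in the Folr2 Lyve1 cells for 11 of 13 tested genes, with a median log2 fold change of -0.80, while 7 of 14 immediate early genes were higher and 0 lower. Folr2 Lyve1 cells were also deeper, their library medians running from 4139 to 5719 UMIs against 2821 to 4523 UMIs in Ccr2 cells. The part of these differences in the C1q and C4b values was not tested.

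Fibroblasts were divided into 5754 Il6 Lif cells, 3507 Pi16 Dpp4 cells, 219 Cilp Myoc Angptl1 cells and 6934 Fmod Hhip cells, named by their gate genes, and 20519 had no state. Pi16 and Dpp4 mark adventitial progenitor-like fibroblasts in several mouse tissues. Near the limit of a gate lay 2967, 1792, 218 and 3250 cells, so these are ranges within a class. Each state was set against the cells of the other 3 states in the same library, and the 4 comparisons therefore share cells.

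C4b was highest in the Il6 Lif and Cilp Myoc Angptl1 states. In Il6 Lif cells it had 428, 358, 307 and 443 CPM in endothelial knockouts 1 to 4 and 297, 520 and 391 CPM in flox controls 1 to 3, against 122 to 201 CPM in the other states over the 7 libraries. No Il6 Lif value reached the range of the other states, and the log2 fold change was 1.60 (SE 0.09, edgeR adjusted p = 7.4e-08). In Cilp Myoc Angptl1 cells, present in sufficient number in 5 libraries, C4b had 847, 331 and 512 CPM in endothelial knockouts 1, 2 and 4 and 881 and 584 CPM in flox controls 1 and 2, against 172 to 255 CPM in the other states. It was higher in 5 of 5 libraries, with a log2 fold change of 1.30 (SE 0.14, edgeR adjusted p = 1.5e-14). C4b was lower in Fmod Hhip cells (mean 134 CPM against 311 CPM in the other states, log2 fold change -1.31, SE 0.06, edgeR adjusted p = 5.0e-10) and in Pi16 Dpp4 cells (162 CPM against 274 CPM, log2 fold change -0.94, SE 0.15, edgeR adjusted p = 0.00023, lower in 6 of 7 libraries).

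C3 divided the states differently. It was highest in Pi16 Dpp4 cells, with 1125, 1424, 1373 and 1592 CPM in endothelial knockouts 1 to 4 and 1540, 1562 and 1329 CPM in flox controls 1 to 3, against 358 to 1274 CPM in the other states over the 7 libraries. Pi16 Dpp4 cells were higher in 7 of 7 libraries, by 1.25 to 3.14 times, though the ranges over libraries overlapped. edgeR gave a log2 fold change of 0.70 (SE 0.12, adjusted p = 0.00047). Il6 Lif cells were also higher in C3 (1137 CPM against 797 CPM, log2 fold change 0.68, SE 0.09, edgeR adjusted p = 6.7e-05, higher in 6 of 7 libraries).

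Fmod Hhip cells were the low C3 state. They had 294, 426, 402 and 580 CPM in endothelial knockouts 1 to 4 and 432, 450 and 367 CPM in flox controls 1 to 3, against 837 to 1635 CPM in the other states. The ranges did not overlap. The log2 fold change was -1.59 (SE 0.06, edgeR adjusted p = 2.7e-11), the largest shift of C3 among the 4 states. In Cilp Myoc Angptl1 cells C3 averaged 1262 CPM against 968 CPM and did not pass (log2 fold change 0.30, SE 0.12, edgeR adjusted p = 0.15).

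C2 moved opposite to C3 in Fmod Hhip and Pi16 Dpp4 cells. In Fmod Hhip cells C2 ran from 265 to 421 CPM over the 7 libraries, with a mean of 320 CPM, against 153 to 218 CPM in the other states, higher in 7 of 7 libraries (log2 fold change 0.66, SE 0.11, edgeR adjusted p = 0.00014). In Pi16 Dpp4 cells it averaged 124 CPM against 268 CPM in the other states and was lower in 7 of 7 libraries (log2 fold change -1.28, SE 0.11, edgeR adjusted p = 3.9e-07). Cilp Myoc Angptl1 cells, at 124 CPM against 246 CPM, were lower in 5 of 5 libraries (log2 fold change -1.11, SE 0.17, edgeR adjusted p = 6.5e-08). In Il6 Lif cells C2 did not pass (log2 fold change 0.11, SE 0.10, edgeR adjusted p = 0.36). Cfb, its neighbour 85 bases away, was lower in Fmod Hhip cells, where C2 was higher, and both genes were lower in Pi16 Dpp4 cells, with the Cfb call lost in either state without the library block (edgeR adjusted p = 0.1662 in Fmod Hhip and 0.292 in Pi16 Dpp4 cells).

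Cfb had log2 fold changes between -0.31 and 0.46 over the 4 states. It was higher in Il6 Lif cells (133 CPM against 110 CPM, log2 fold change 0.46, SE 0.10, edgeR adjusted p = 0.0028, higher in 6 of 7 libraries) and lower in Fmod Hhip cells (106 CPM against 125 CPM, log2 fold change -0.31, SE 0.07, edgeR adjusted p = 0.0034, lower in 6 of 7 libraries). State by state, Il6 Lif cells were higher than Fmod Hhip cells in 6 of 7 libraries, than Pi16 Dpp4 cells in 4 of 7 and than Cilp Myoc Angptl1 cells in 1 of 5. In Pi16 Dpp4 cells a log2 fold change of -0.23 (SE 0.08, edgeR adjusted p = 0.027) stood beside CPM values that were lower in 4 of 7 libraries, and the call was lost without flox control 2 or without endothelial knockout 2 or 4 (log2 fold changes -0.22, -0.23 and -0.15). In Cilp Myoc Angptl1 cells Cfb averaged 176 CPM against 122 CPM, higher in 5 of 5 libraries but not past the threshold (log2 fold change 0.40, SE 0.15, edgeR adjusted p = 0.097).

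C7 was modestly higher in Fmod Hhip cells (628 CPM against 494 CPM, log2 fold change 0.36, SE 0.07, edgeR adjusted p = 0.0012, higher in 7 of 7 libraries) and lower in Pi16 Dpp4 cells (491 CPM against 563 CPM, log2 fold change -0.42, SE 0.08, edgeR adjusted p = 0.0011, lower in 7 of 7 libraries). Both calls were lost without the library block (edgeR adjusted p = 0.5584 in Fmod Hhip and 0.4913 in Pi16 Dpp4 cells). Differences of C7 between libraries were wider than between states: flox controls 1 and 2 were at 875 to 1023 CPM in Il6 Lif, Pi16 Dpp4 and Fmod Hhip cells, and flox control 3 at 202 to 316 CPM.

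In counts, 3 of 9 members were called in Il6 Lif cells, all higher (23.6% of 12962 genes were higher, and 47.1% were called in all). Of the members, 1 was higher and 5 were lower in Pi16 Dpp4 cells (18.5% of genes higher, 21.9% lower, 40.4% in all), where C1qb, at 4.42 CPM against 6.08 CPM, was among the lower. In Cilp Myoc Angptl1 cells 1 was higher and 1 lower (1.68% of genes higher, 5.02% lower, 6.7% in all), and in Fmod Hhip cells 2 were higher and 3 lower (19.9% of genes higher, 23.0% lower, 42.9% in all). The NF-kB list was higher in Il6 Lif cells for 14 of 15 tested genes (median log2 fold change 1.54). It shares no gene with the gates, but Il6, Lif, Cxcl1 and Ptgs2, which gate this state, are inflammatory genes too, so list and gate are not independent. The list was lower for 12 of 14 genes in Pi16 Dpp4, 11 of 15 in Cilp Myoc Angptl1 and 11 of 14 in Fmod Hhip cells, each set against cells that include the Il6 Lif state. Il6 Lif cells also held 9 higher and 2 lower of 14 immediate early genes, and had more UMIs per cell, a median of 4622 to 8107 per library against 3338 to 5807 in the other states. The part of these gene lists or of depth in the C4b, C3 and Cfb differences was not tested.

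**Figure D3:**
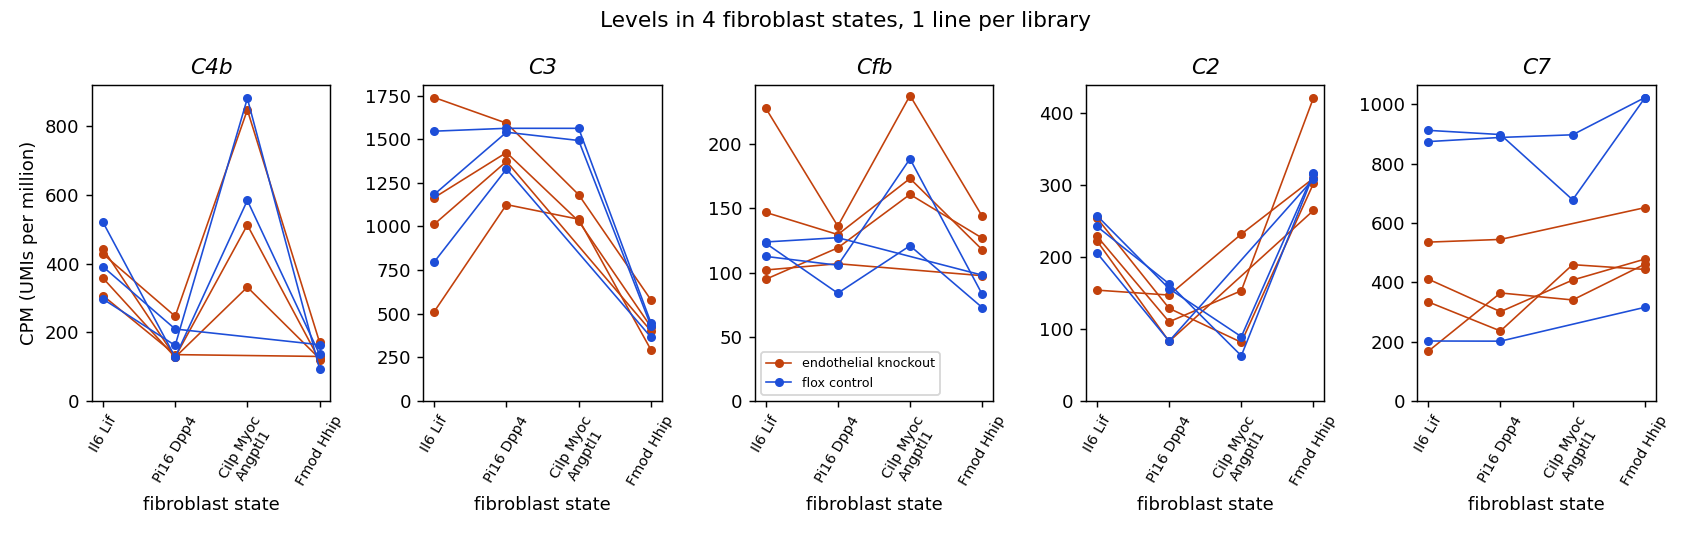
CPM of C4b, C3, Cfb, C2 and C7 in 4 fibroblast states, with 1 line per library joining its values, endothelial knockouts in orange and flox controls in blue, and no point where a library had under 20 cells of the state. C4b peaks in the Il6 Lif and Cilp Myoc Angptl1 states, C3 is low in the Fmod Hhip state where C2 is high, and the C7 lines of flox controls 1 and 2 lie above the other libraries in every state.

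Among 47 other complement genes listed by role, 46 were in the files, 21 reached 20 CPM in at least 1 gate and 13 stayed under 1 CPM in every gate. Against fibroblasts, 12 of 30 tested were higher and 17 lower in macrophages, 6 of 32 higher and 18 lower in smooth muscle cells, and 6 of 26 higher and 8 lower in endothelial cells. In that order 96.7%, 75.0% and 53.8% were called, against 74.2%, 77.2% and 50.3% of all tested genes. The genes with the largest called shifts towards macrophages were Fcna, a ficolin of the lectin pathway (log2 fold change 9.37, SE 0.41), Itgam (8.76, SE 0.35) and Itgb2 (8.14, SE 0.37), which form complement receptor CR3, Vsig4, a receptor for C3 fragments (8.25, SE 0.30), C5ar1, the C5a receptor (8.20, SE 0.36), and the membrane protein gene Cd93 (6.93, SE 0.27). Cd93 averaged 159.9 CPM in macrophages, 635 CPM in endothelial cells and 1.42 CPM in fibroblasts, and the receptor gene Cr2 averaged 0.034 CPM in macrophages.

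The C1 proteases and their inhibitor lay with C2 and C3 in fibroblasts rather than with C1q. C1ra averaged 19.3 CPM in macrophages, 25.4 CPM in smooth muscle cells, 87.5 CPM in endothelial cells and 476 CPM in fibroblasts, and C1s1 averaged 12.5, 46.9, 26.0 and 726 CPM in the same order. Serping1, the C1 inhibitor gene, averaged 35.1 CPM in macrophages and 2302 CPM in fibroblasts (log2 fold change -6.38, SE 0.38, edgeR adjusted p = 2.0e-08).

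Some regulators were higher in endothelial or smooth muscle cells than in fibroblasts, and others were lower. Endothelial cells were higher than fibroblasts in Clu, a soluble inhibitor of the terminal complex (log2 fold change 3.63, SE 0.13), in Cd59a, its membrane inhibitor (3.16, SE 0.13), and in Cd93 (8.64, SE 0.29), and lower in Serping1 (-5.22, SE 0.26), C1s1 (-5.15, SE 0.24) and Csmd1 (-3.23, SE 0.24). Smooth muscle cells were higher in Cd59a (3.61, SE 0.09) and lower in Cd55, which speeds decay of the convertases (-5.29, SE 0.20), Masp1, a lectin pathway protease (-5.25, SE 0.26), Serping1 (-4.62, SE 0.17), C1ra (-4.15, SE 0.14) and C1s1 (-3.91, SE 0.17). Clu averaged 1922 CPM in endothelial cells, 521 CPM in smooth muscle cells and 129 CPM in fibroblasts.

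Within macrophages, 7 of 19 tested were higher and 2 lower in Folr2 Lyve1 cells than in Ccr2 cells. Called in all were 47.4%, against 26.5% of all tested genes. Vsig4 (log2 fold change 6.05, SE 0.22), Fcna (3.93, SE 0.22), the scavenger lectin gene Colec12 (2.32, SE 0.16) and Cd55 (1.71, SE 0.32) were higher, and Itgax, a subunit of complement receptor CR4, was lower (-6.29, SE 0.28, averaging 0.7 CPM in Folr2 Lyve1 cells and 74.5 CPM in Ccr2 cells).

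Within fibroblasts, 6 of 23 tested were higher and 3 lower in Il6 Lif cells, 4 of 23 higher and 11 lower in Pi16 Dpp4 cells, 2 of 19 higher and 4 lower in Cilp Myoc Angptl1 cells, and 5 of 25 higher and 7 lower in Fmod Hhip cells. In that order 39.1%, 65.2%, 31.6% and 48.0% were called, against 47.1%, 40.4%, 6.7% and 42.9% of all tested genes. Cd55 set the Pi16 Dpp4 state apart, averaging 680 CPM there, against 109 CPM in Il6 Lif, 78.2 CPM in Cilp Myoc Angptl1 and 32.8 CPM in Fmod Hhip cells (log2 fold change 3.12, SE 0.11), and its neighbour Cd55b was higher there too. Pi16 Dpp4 cells were lower in Colec11 (-2.71, SE 0.22), Itgam (-1.63, SE 0.41) and Colec12 (-1.36, SE 0.06). Itgam averaged 0.586 CPM in Pi16 Dpp4 cells, against 549 CPM in macrophages. The 13 macrophage markers summed to a median of 80.8 CPM over libraries in Pi16 Dpp4 cells (73.7 to 178), against 111 CPM in Il6 Lif (83.0 to 176), 128 CPM in Cilp Myoc Angptl1 (78.9 to 274) and 118 CPM in Fmod Hhip cells (87.4 to 202), and their part in the lower Itgam and C1qb of Pi16 Dpp4 cells was not tested. Fmod Hhip cells went the other way for Cd55 (-3.20, SE 0.15), Cd55b (-1.85, SE 0.46), Colec11 (2.07, SE 0.19) and Colec12 (0.71, SE 0.08), and were lower in Vtn, the terminal pathway inhibitor vitronectin (-2.85, SE 0.40), and C1rl (-0.64, SE 0.12).

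Il6 Lif cells were higher in Vtn (2.85, SE 0.51), Csmd1 (0.87, SE 0.16) and C1s1 (0.45, SE 0.05) and lower in Cd55 (-1.06, SE 0.14), Colec11 (-1.03, SE 0.18) and Cd46 (-0.78, SE 0.16). Cilp Myoc Angptl1 cells were higher in Masp1 (1.61, SE 0.43), whose call was lost without flox control 1 (1.06), and in C1s1 (0.46, SE 0.12), whose call was lost without endothelial knockout 1 (0.34). They were lower in Cd55 (-1.74, SE 0.19) and Colec12 (-0.70, SE 0.14). Colec11 was at 0 UMIs in the 5 libraries of these cells, and its call was lost without each of the 5 in turn.

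**Figure D4:**
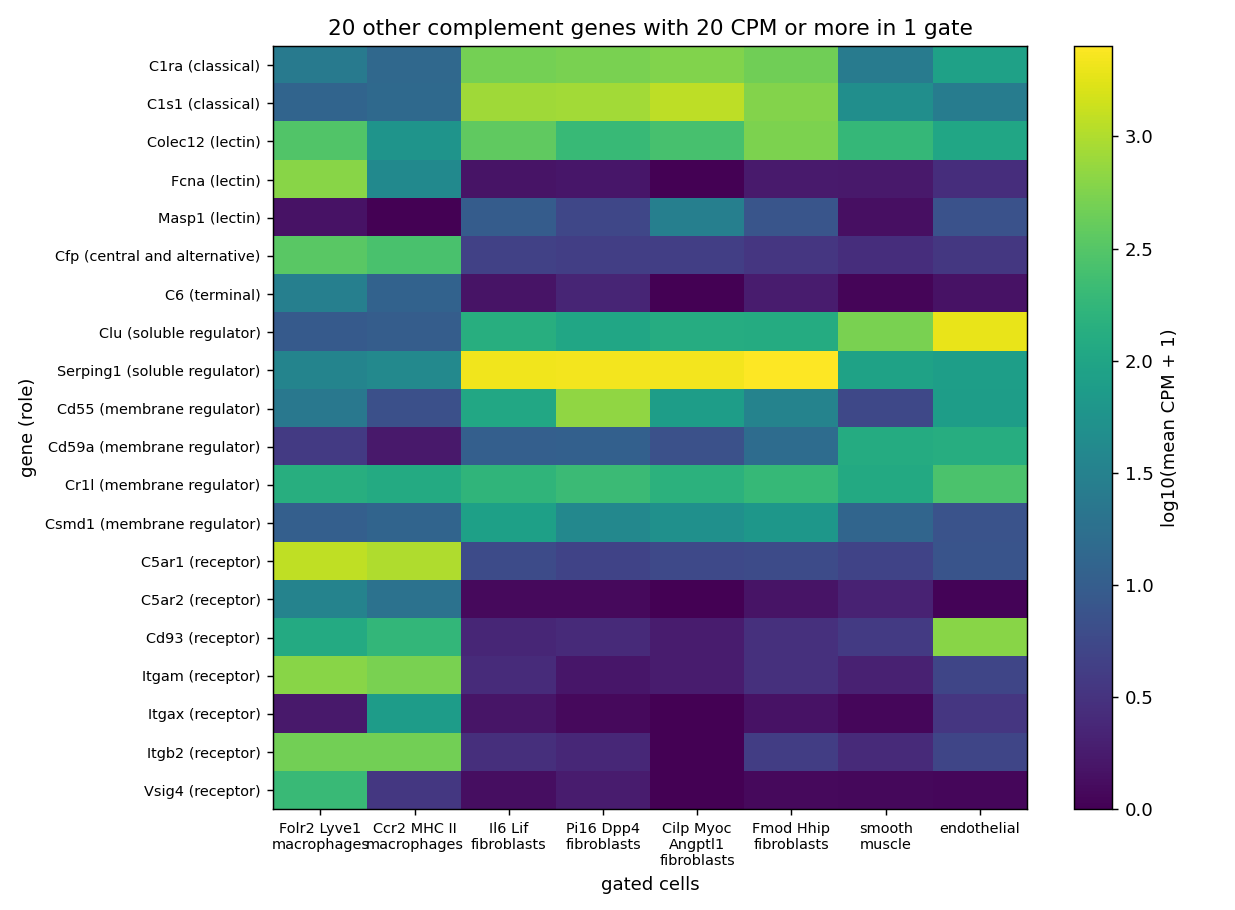
Mean level of 20 of the 21 other complement genes that reached 20 CPM in a gate (rows, with their role) in 8 gated cell groups (columns), colour being log10 of mean CPM + 1. C5ar1, Itgam and Itgb2 are bright in the macrophage columns, C1ra, C1s1 and Serping1 in the fibroblast columns, Cd55 in the Pi16 Dpp4 column, and Clu and Cd93 in the endothelial column.

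Likeness of pattern was measured as Pearson's r of log2(CPM + 1) across 14 gated groups, for 11259 genes, as a description over cells that share libraries. The genes most like C1qa were Folr2 (r = 0.994), Ms4a7, Msr1, Ltc4s and Aif1 (0.981), and Folr2 and Ms4a7 are gate genes. The nearest to C3 were Ccbe1 (0.971), Pi16, Inmt, Opcml and Dpt (0.940), and the nearest to C7 were Pcolce (0.977), Dpt, Pdgfra, Inmt and Ccbe1 (0.960). Of these, Pi16, Dpt and Pdgfra are gate genes too. The pattern of a gate gene over the groups is partly set by the gating. Cfb was most like Sec16b (0.974), Sult5a1, Fst, Srpx and Ctsk (0.939). C4b had looser neighbours, led by Abca9 (0.910), Mt1, Cmtm3, Idh1 and Pmp22 (0.883). Among the 14 groups the Schwann-like one rested on 1 library, the 21 cells of flox control 1. The B cell-like and neutrophil-like groups rested on 2 libraries each. The part of these groups in the r values was not tested.

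Between genotypes, no member was called in any class. Slc38a2 itself averaged lower in endothelial knockout endothelium, at 185, 278, 323 and 285 CPM against 436, 384 and 323 CPM in flox controls, the highest endothelial knockout value lying just under the lowest flox control value, and did not pass (log2 fold change -0.42, SE 0.23, edgeR adjusted p = 0.81). Since the deleted exons are not named, this does not check the labels. With edgeR, 0 of 10373 genes in macrophages, 0 of 15413 in fibroblasts, 0 of 12641 in smooth muscle cells and 0 of 7560 in endothelial cells were called (0.0% in each), with 774, 700, 628 and 448 genes at an unadjusted p under 0.05, and DESeq2 called 3, 7, 10 and 0 genes. In the fibroblast states 0.0% of 11493 genes were called in Il6 Lif, of 11250 in Pi16 Dpp4, of 4021 in Cilp Myoc Angptl1 and of 11840 in Fmod Hhip cells, with 574, 684, 263 and 653 at an unadjusted p under 0.05, and DESeq2 called 7, 4, 0 and 5. The members that passed the low-count filter numbered 9 in macrophages, fibroblasts, smooth muscle cells and Il6 Lif cells, 6 in Pi16 Dpp4, 5 in Cilp Myoc Angptl1 and 7 in Fmod Hhip cells, and 0 in endothelial cells.

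In macrophages, C1qc had 3911, 3299, 3456 and 3466 CPM in endothelial knockouts, against 3056, 3067 and 1948 CPM in flox controls. These groups did not overlap, which was also true of 8.09% of the genes tested there. With edgeR C1qc had a log2 fold change of 0.40 (SE 0.19, adjusted p = 0.67). C1qb had 3398, 2566, 2643 and 3354 CPM in endothelial knockouts against 2938, 2057 and 2052 CPM in flox controls, with overlap (log2 fold change 0.35, SE 0.20, edgeR adjusted p = 0.72). C1qa had 1046, 828, 857 and 1076 CPM in endothelial knockouts against 844, 1009 and 792 CPM in flox controls, also with overlap (log2 fold change 0.11, SE 0.17, edgeR adjusted p = 0.90).

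The lowest C1qc value, that of flox control 3, came from 168 macrophages with the high interferon and NF-kB lists given above and with 18287 CPM of macrophage markers, against 24298 to 33546 CPM in the other libraries. Of these 168 cells, 83 were gated as Ccr2 MHC class II and 43 as Folr2 Lyve1. Endothelial knockout 4, whose C1qc value is given above, also held more Ccr2 cells (292) than Folr2 Lyve1 cells (122). In the remaining libraries the Folr2 Lyve1 cells were the more numerous. Flox control 3 also held the lowest macrophage C4b, and without it the C4b difference turned from a log2 fold change of 0.20 (SE 0.36, edgeR adjusted p = 0.92) to -0.18. The part of the state mix in the C1qc and C4b values was not tested. C3ar1 had 872, 1526, 1397 and 1209 CPM in endothelial knockouts against 1377, 1339 and 1340 CPM in flox controls (log2 fold change -0.11, SE 0.23, edgeR adjusted p = 0.94). The endothelial knockouts lay on both sides of the closely grouped flox controls, and without endothelial knockout 1 the sign turned to 0.06.

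In fibroblasts, C3 had 509, 922, 823 and 1396 CPM in endothelial knockouts against 820, 991 and 721 CPM in flox controls (log2 fold change 0.15, SE 0.30, edgeR adjusted p = 0.97). The endothelial knockouts held both the lowest and the highest value, and without endothelial knockout 4 the log2 fold change was -0.10. C7 had 376, 424, 574 and 347 CPM in endothelial knockouts against 985, 962 and 261 CPM in flox controls, so that flox control 3 lay below all 4 endothelial knockouts and the other flox controls above them (log2 fold change -0.70, SE 0.38, edgeR adjusted p = 0.94). The C7 log2 fold changes were -0.78 (SE 0.46) in Il6 Lif, -0.85 (SE 0.39) in Pi16 Dpp4, -0.89 (SE 0.26) in Cilp Myoc Angptl1 and -0.58 (SE 0.30) in Fmod Hhip cells, none of them called.

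Cfb in fibroblasts had 118, 137, 101 and 179 CPM in endothelial knockouts against 101, 87.5 and 118 CPM in flox controls, with overlap (log2 fold change 0.40, SE 0.21, edgeR adjusted p = 0.94). C2 had 234, 243, 211 and 227 CPM in endothelial knockouts against 268, 258 and 210 CPM in flox controls (log2 fold change -0.07, SE 0.12, edgeR adjusted p = 0.97). C4b differed by 0.09 on the log2 scale (SE 0.17, edgeR adjusted p = 0.97), with 225, 214, 218 and 226 CPM in endothelial knockouts against 165, 219 and 245 CPM in flox controls, and without flox control 1 the sign turned to -0.09. Of all tested genes in fibroblasts 4.77% had groups that did not overlap, and none of the members C2, C3, C4b, C7 and Cfb was among them.

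**Figure D5:**
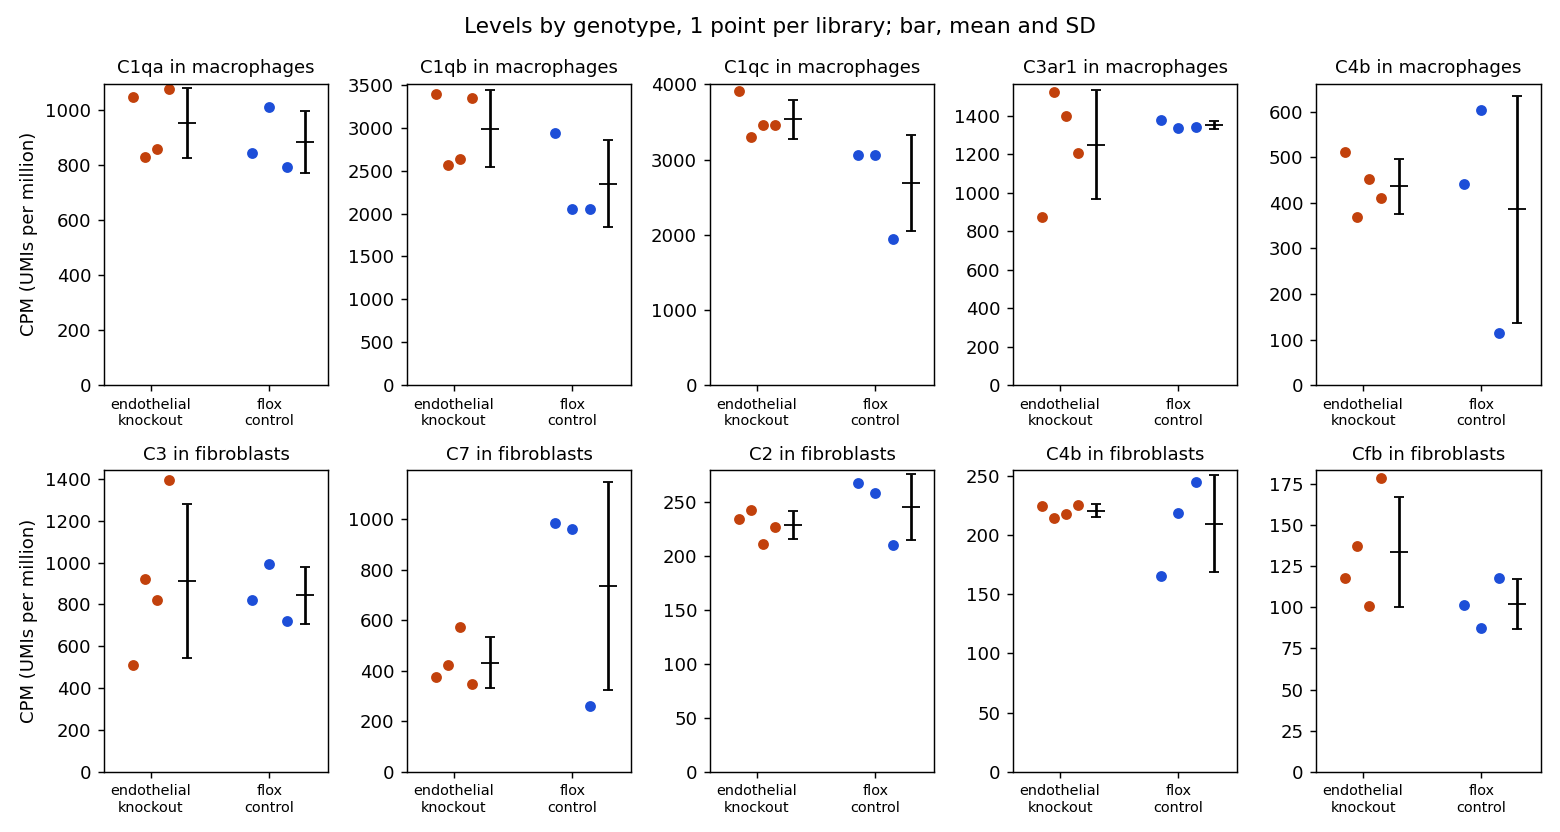
CPM of 5 genes in macrophages (top) and 5 in fibroblasts (bottom), with 1 point per library, endothelial knockouts in orange (n = 4) left of flox controls in blue (n = 3), and bars for mean and SD. The groups overlap in every panel except C1qc in macrophages, and the C7 values of flox controls 1 and 2 stand above all other libraries.

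The genotype effect was also compared between macrophages and fibroblasts, with 0 of 9 members called among 14605 genes, of which 0.0% were called and 594 had an unadjusted p under 0.05. Log2 differences of the effect ran from -0.74 (SE 0.40) for C7 to 1.04 (SE 0.71) for C1qc. Among the other complement genes, 0 were called by genotype in any class.

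Over all kept cells, where fewer cells of a type and less RNA per cell cannot be told apart, no member reached 0.05 in an exact two-sided permutation test over the 35 arrangements of the genotype labels, whose smallest possible p is 0.0286. C7 had the lowest p, at 267 ± 21.1 CPM in endothelial knockouts (SD, n = 4) and 502 ± 292 CPM in flox controls (SD, n = 3) and an exact permutation p of 0.2286. C3 had the highest, at 597 ± 314 CPM in endothelial knockouts and 567 ± 125 CPM in flox controls, with an exact permutation p of 0.9143. C1qc averaged 223 ± 77.4 CPM in endothelial knockouts and 159 ± 86.8 CPM in flox controls (exact permutation p = 0.4).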

How the data were processed

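Single-cell RNA of mouse aorta was analysed in 7 libraries, grouped by the genotype label. The files hold UMI counts per gene and cell as the authors deposited them, with no normalization. The submitters' processing notes name STARsolo 2.7.10a, CASAVA 1.8, Seurat and the build mm10. For settings, strand use and barcode selection, nothing was given in the sources used here. Deposited totals ran from 22646246 to 73102988 UMIs per library, intervals cover counting error only, and 2826 barcodes occurred in 2 or more libraries.

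Cells with under 200 genes or over 25% mitochondrial counts were removed, then doublets by Scrublet in scanpy 1.11.5 (expected rate 0.06), which marked 0.869% to 2.07% of cells. A cell was gated to the class with the highest mean log1p of counts per 10000 over its markers, if that mean reached 0.6, the next class stayed within 0.6 times it and 3 markers were seen. States needed 0.8, 0.6 and 2. These limits were set after seeing the data, and the members and lists were chosen with earlier results of these data known.

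UMIs were summed per library and class with at least 20 cells. Tests were edgeR 4.0.16 (TMM, filterByExpr, quasi-likelihood, Benjamini-Hochberg over all tested genes) in R 4.3.3, tested on simulated data. Genotype fits had no block, and class and state fits had the library as a block. The members are always named, and of other complement genes up to 6 per comparison with the largest called log2 fold changes. Of the genes this rule names, 1 is not reported here. Alternatives were DESeq2 1.42.0, no filter, stricter gates (1.0, 0.4 and 4 markers) and cell filters (500 genes, 10% mitochondrial), doublets kept, cells weighted equally (limma 3.58.1, prior count 2), no library block, a replicate block, all deposited barcodes, and each library left out. Coordinates come from GENCODE M21 on GRCm38, which mm10 names, where 99.8% of identifiers matched. Within groups no pair of libraries agreed within sampling noise.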

Additional observations from a re-analysis of the deposited data

Results flagged for a closer look

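In 36 sets of 4 endothelial knockout libraries tested for a library far from the rest, 3 values stood apart, where chance gives about 1 in 20. C1qb in Ccr2 MHC class II macrophages was 2853 CPM in endothelial knockout 4, against 1989 to 1998 CPM in the other 3 endothelial knockouts. C4b in Pi16 Dpp4 fibroblasts was 247 CPM in endothelial knockout 1, against 128 to 135 CPM in the other 3. C7 in Fmod Hhip fibroblasts was 652 CPM in endothelial knockout 3, against 444 to 478 CPM in the other 3.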

How the results depend on the processing

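Between classes and states, 610 of 638 values under other settings and 637 of 657 with a library left out kept their direction and side of the threshold. Without the low-count filter, 1 member was called by genotype in macrophages (C7, log2 fold change -1.60, edgeR adjusted p = 0.0101), in endothelial cells (C7, -1.85, 0.0374), in Pi16 Dpp4 fibroblasts (C7, -0.85, 0.000307) and in Fmod Hhip fibroblasts (C1qb, -1.33, 0.0300). Flox control 1 held the most fibroblast marker RNA in macrophages (2417 CPM against 387 to 936 elsewhere) and in endothelial cells (2538 CPM against 712 to 1441 elsewhere). Endothelial cells held 70 C7 UMIs over all libraries. The part of fibroblast RNA in the macrophage and endothelial C7 calls was not tested. Without the library block the members called fell to 3 between macrophage states (C1qb, C2 and Cfb lost), 3 in Pi16 Dpp4 and 3 in Fmod Hhip fibroblasts. With a library left out, Il6 Lif fibroblasts had 3 to 5 members called, 5 without endothelial knockout 1 (C1qb and C2 gained). Signs turned for C3ar1 by genotype in macrophages without endothelial knockout 1 (0.0610, with leave-one-out values from -0.2301), C4b in macrophages without flox control 3 (-0.1841 to 0.638), C3 in fibroblasts with the replicate block (-0.1520) and without endothelial knockout 4 (-0.0962 to 0.3646), C4b in fibroblasts without flox control 1 (-0.0878 to 0.2939), and C7 in Il6 Lif fibroblasts under the strict gate (0.1154) and without endothelial knockout 1 (-0.1568 to 0.0784). Cfb in Pi16 Dpp4 fibroblasts was not called under the strict gate or with cells weighted equally, and C2 between macrophage states not with DESeq2 or with cells weighted equally, while Cfb in Cilp Myoc Angptl1 fibroblasts was called with DESeq2 (0.52, adjusted p = 0.0443) and C3 there without endothelial knockouts 2 (0.42) and 4 (0.49). The causes were not tested. Over all genes, calls ranged from 236 to 842 in Cilp Myoc Angptl1, 3263 to 5784 in Fmod Hhip, 4084 to 6222 in Il6 Lif and 3439 to 5099 in Pi16 Dpp4 fibroblasts, from 1128 to 2335 between macrophage states, and from 7927 to 12495 between smooth muscle cells and fibroblasts, against 842, 5752, 6104, 5085, 2277 and 11942. By genotype they reached 48 in macrophages, 8 in fibroblasts, 10 in smooth muscle, 75 in endothelial, 7 in Il6 Lif, 96 in Pi16 Dpp4, 22 in Cilp Myoc Angptl1 and 84 in Fmod Hhip cells, against 0. Libraries with the same number correlated between -0.027 and 0.21. Without such values for libraries of different numbers, this cannot decide whether the numbers pair them. With the replicate block 1 gene was called in macrophages, 8 in fibroblasts and 0 members. The strict gate gave no genotype value in Cilp Myoc Angptl1 fibroblasts, and the difference of genotype effects has no replicate block fit. Depth limits the members in endothelial cells, where 21 to 99 UMIs of each were counted.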

Other observations

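Other complement genes, chosen after their values were seen, also set macrophages apart. Cfp, which encodes properdin, the stabiliser of the alternative convertase, averaged 316 CPM in macrophages and 2.9 CPM in fibroblasts (log2 fold change 6.78, SE 0.15, edgeR adjusted p = 4.6e-11), so its level lay in a class other than that of C3 and Cfb. C6, the terminal component that binds C7, averaged 30.6 CPM in macrophages and 0.6 CPM in fibroblasts (log2 fold change 5.55, SE 0.34, edgeR adjusted p = 2.6e-08). Slc38a2 was higher in Il6 Lif fibroblasts than in the other states (log2 fold change 0.48, SE 0.06, edgeR adjusted p = 3.0e-05) and lower in Pi16 Dpp4 fibroblasts (-0.55, SE 0.09, edgeR adjusted p = 0.00019).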
